A study of Cymbopogon flexuosus and Cymbopogon winterianus with 4 samples.

Results

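Among the transcript contigs of citronella (Cymbopogon winterianus), a small group was read far more often in leaves of the other species, lemongrass (Cymbopogon flexuosus). These contigs carry the citronella prefix in their IDs, yet their levels in citronella leaves were far below those in lemongrass leaves. They were selected on the measured values of all 4 libraries. A contig was taken when it had a CPM of 20 or more (CPM is the count as a share of the column total, scaled in the usual way) in both lemongrass libraries. The lower lemongrass CPM also had to be at least 6 times the higher citronella CPM. Of 42250 citronella contigs, 80 met both conditions. Of the 8287 contigs that met the first condition, they were 0.965%. The difference between the species is therefore what chose these contigs, and it is given below as a description with no test.

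The study sequenced leaf RNA from 2 libraries of each species. The plants were field-grown accessions kept in plots under control conditions, and the labels give no plant age, genotype or accession name. No label states that libraries of the same species were made from different plants, and their spread may be technical. Counts on citronella contigs summed to 5540867 and 6369924 in the lemongrass libraries and to 6222870 and 5132053 in the citronella libraries. At these depths 3 counts, the limit that a count of 0 allows, correspond to 0.471 to 0.585 CPM, and this limit covers counting error only. The first citronella library held compressed values for abundant contigs (its top count was 5782, and 33170 in the other), so the ratios are also given against the second library alone.

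Lemongrass and citronella are scented grasses whose leaf oils differ. Lemongrass oil is known for citral, the mixture of the aldehydes geranial and neral, and citronella oil for citronellal, citronellol and geraniol. These monoterpenoids derive from geranyl diphosphate, which plants make in plastids and then convert through synthases, dehydrogenases and reductases. A contig is a stretch of transcript sequence put together from overlapping reads, and alleles, splice forms or gene copies can end up as separate contigs. The tables hold contig IDs and counts but neither gene names nor sequences, so no contig could be tied to scent chemistry or to a leaf marker. Reads that fit several near-identical contigs could have been split or lost, and the value of any single contig is uncertain to that extent. In RNA from whole leaves, fewer cells that express a transcript and less of it per cell cannot be told apart.

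Contig lengths were not used here, so an order of contigs by CPM is an order of read shares and not of transcript levels per length. The 80 contigs spanned a wide range of levels in lemongrass. In the first lemongrass library they ran from 20.4 to 1870 CPM with a median of 66.5 CPM, and in the second from 20.3 to 1819 CPM with a median of 63.6 CPM. In the first citronella library they ran from 1.61 to 195 CPM with a median of 6.43 CPM, and in the second from 0.390 to 224 CPM with a median of 3.60 CPM. No contig of the group was at 0 in citronella: the lowest counts were 10 and 2 in the citronella libraries. All 80 were thus detected in both species.

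**Figure D1:**
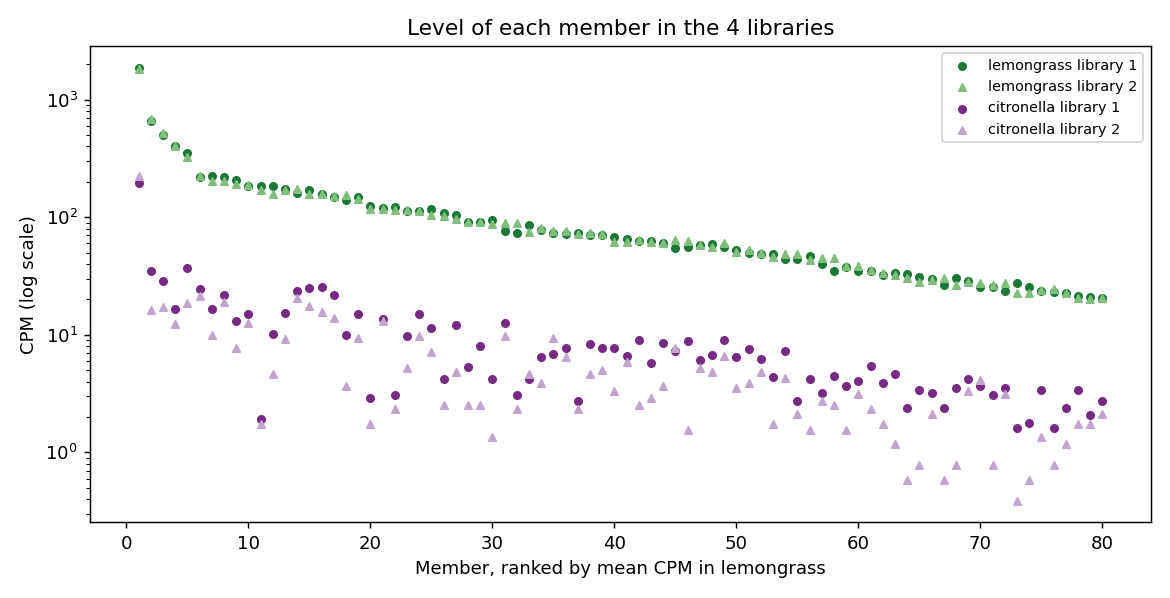
CPM of each of the 80 contigs in the 4 libraries, on a log scale, ranked from left to right by mean CPM in lemongrass; each point is 1 contig in 1 library. The lemongrass points of a contig nearly coincide, while the citronella points lie at least 6-fold below them and spread more. The first citronella library is above the second in 75 of 80 contigs, as it was in most other contigs of like counts.

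Together the contigs made up 0.980% and 0.969% of all counts in lemongrass, a mean of 0.974% ± 0.00799 (SD, n = 2). In citronella they made up 0.0892% and 0.0666% of all counts, a mean of 0.0779% ± 0.0160 (SD, n = 2). A single contig, g.contigcw4781, held 19.1% and 18.8% of the group's counts in lemongrass and 21.9% and 33.7% in citronella. Without it the shares were 0.793% and 0.787% in lemongrass and 0.0697% and 0.0441% in citronella. The rule sets this outcome: each contig was at least 6-fold higher in lemongrass, so the summed gap remains whichever contig is left out.

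Of the 6 contigs of the group with the highest lemongrass levels, g.contigcw4781 led by a wide margin, at 1870 and 1819 CPM in lemongrass and 195 and 224 CPM in citronella. It was the only one of the 6 with a higher CPM in the second citronella library than in the first, and its lower lemongrass CPM was 8.10 times its higher citronella CPM. g.contigcw11821 followed at 660 and 678 CPM in lemongrass and 34.5 and 16.2 CPM in citronella. The summed counts of g.contigcw11821 differed 25.5-fold between the species, with a 95% exact interval of 22.7 to 28.7 that covers counting error only.

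Next in level came g.contigcw13090, which stood at 500 and 517 CPM in lemongrass against 28.6 and 17.3 CPM in citronella. g.contigcw13182 stood at 401 and 406 CPM against 16.7 and 12.5 CPM. g.contigcw9454 stood at 350 and 324 CPM against 37.0 and 18.5 CPM, so its citronella libraries differed 2-fold from each other. The sixth, g.contigcw11275, was the one whose citronella libraries lay closest, at 24.6 and 21.4 CPM against 217 and 222 CPM in lemongrass. In all 6 the lemongrass libraries agreed to within a small fraction of the gap between the species.

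The largest ratios belonged to contigs with mean levels above the group's median in lemongrass (64.1 CPM) and below its median in citronella (5.24 CPM). Their citronella counts were low but above the limit of 3 counts. Over the group, mean lemongrass level and ratio rose together weakly (rho 0.314), as is partly set by the lemongrass level being part of the ratio. For g.contigcw38346 the lemongrass libraries held 1028 and 1077 counts and those of citronella 12 and 9. Its lower lemongrass CPM was 87.7 times its higher citronella CPM, the largest ratio of the group, and by its summed counts it was 95.6-fold higher in lemongrass (exact interval at 95%, 62.4 to 155). g.contigcw35479 had 691 and 751 counts against 18 and 9, a ratio of 40.8. g.contigcw33838 had 673 and 727 counts against 19 and 12, a ratio of 37.4.

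Below these, the ratios lay closer together. g.contigcw39558 had 406 and 456 counts in lemongrass against 17 and 12 in citronella, a ratio of 26.2. g.contigcw18952 had 600 and 657 counts against 26 and 13, a ratio of 24.7. g.contigcw35282 had 406 and 570 counts against 19 and 12, a ratio of 24.0. With so few citronella counts the size of each ratio is loosely fixed: for g.contigcw35282 the exact interval of the summed fold ran from 21.0 to 44.4, which takes in the summed folds of g.contigcw39558 (28.3) and g.contigcw18952 (30.7). The order of these 3 contigs is thus within counting error.

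Over the group, the ratio of the lower lemongrass to the higher citronella CPM had a median of 9.13. It reached 8-fold in 54 contigs, 12-fold in 24 and 20-fold in 8. Against the second citronella library alone, which did not show the compression, the lowest ratio was 6.22, the median 17.4 and the highest 96.4. Then 74 contigs reached 8-fold, 54 reached 12-fold and 34 reached 20-fold. Every one of the 80 thus passed the 6-fold condition against that library by itself, as the rule guarantees, and most passed it by a wide margin.

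The contigs nearest the 2 thresholds show how sharp the selection was. Just inside 6-fold were g.contigcw34195, with a ratio of 6.05 at 21.5 and 20.4 CPM in lemongrass, and g.contigcw15399, with a ratio of 6.06 at 76.0 and 88.9 CPM. Just outside were g.contigcw13347, with a ratio of 5.97 at 70.0 and 78.7 CPM, and g.contigcw21930, with 5.93 at 42.2 and 39.1 CPM. On the level threshold, g.contigcw39887 (21.1 and 20.3 CPM) and g.contigcw34766 (20.4 and 20.4 CPM) were just inside. g.contigcw31191 (23.6 and 19.6 CPM) and g.contigcw40565 (19.5 and 22.0 CPM) were just outside, with ratios of 11.1 and 6.25. These contigs form a continuum across both thresholds, and the number 80 marks a chosen limit in it.

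Which citronella column is used decided how many contigs qualified. Against the second citronella library alone 211 contigs qualified, and against the first alone 113. The 131 contigs that passed only against the second library had median levels of 42.4 and 41.4 CPM in lemongrass, 10.1 CPM in the first citronella library and 5.26 CPM in the second. All 131 were still higher in both lemongrass libraries than in either citronella library, and their median ratio was 4.32 against the first and 7.41 against the second. They resemble the 80 in direction but miss the 6-fold mark in the first citronella library.

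The 33 contigs that passed only against the first citronella library had higher median levels. Their medians were 559 and 565 CPM in lemongrass, 71.7 CPM in the first citronella library and 359 CPM in the second. Against the second library their median ratio was 1.42, and 9 of the 33 were at least 2-fold higher in lemongrass against both citronella libraries. The highest of them stood at 6757 and 6720 CPM in lemongrass and at 765 and 6463 CPM in citronella. They ran down to 20.6 and 20.1 CPM in lemongrass, so not all of them were abundant. The use of the higher citronella value kept all 33 out of the group.

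**Figure D2:**
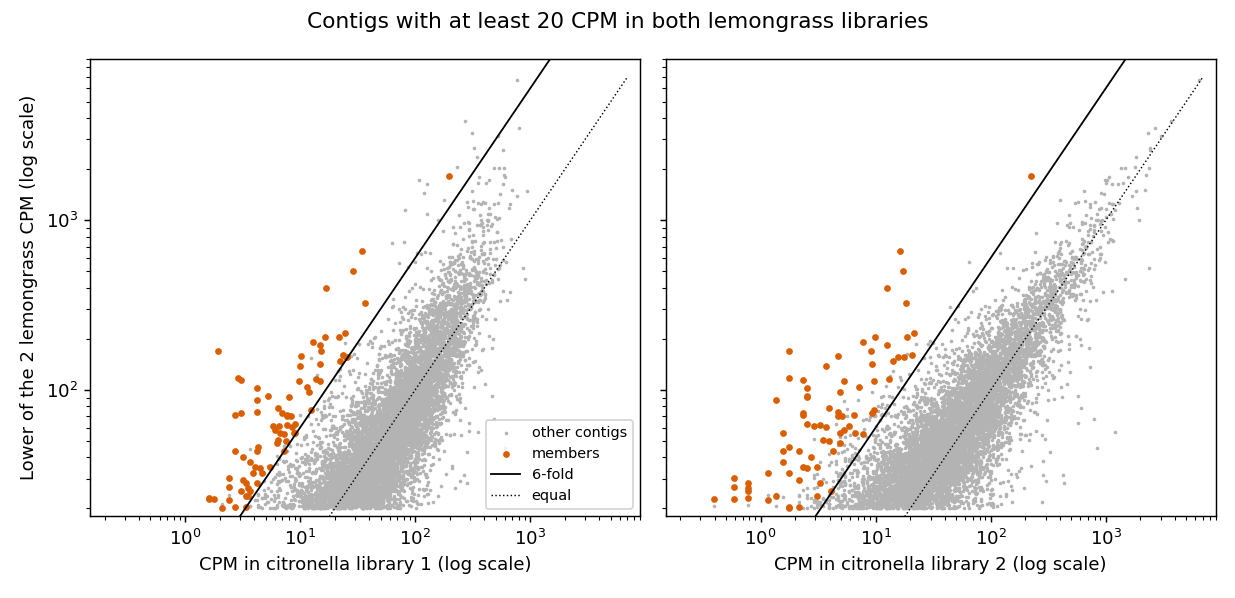
Lower of the 2 lemongrass CPM (vertical, log scale) against CPM in the first (left) and the second (right) citronella library (horizontal, log scale) for the 8287 contigs with at least 20 CPM in both lemongrass libraries; orange points are the 80 members, the solid line marks 6-fold and the dotted line equal levels. Against the first library the abundant contigs bend up towards the 6-fold line, while against the second they follow the line of equal levels and g.contigcw4781 stands clear of them.

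Scaling also moved the number. With CPM on TMM-scaled library sizes 187 contigs qualified, with DESeq2's size factors 192 and with upper-quartile scaling 147, and each of these sets held all 80. Scaling by column totals, which the rule used, thus gave the smallest of these 4 sets.

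As a description only, the ratio was also read in libraries that took no part in choosing each set of contigs. Contigs were chosen by the same thresholds in 1 lemongrass and 1 citronella library, and their lemongrass to citronella ratio was taken in the other 2 libraries. Chosen in the first library of each species, 126 contigs had a median ratio of 11.5 in the second libraries, where 120 were higher in lemongrass and 89 (70.6%) were at least 6-fold higher. Chosen in the second lemongrass and the first citronella library, 132 contigs had a median of 11.2, with 129 higher in lemongrass and 97 (73.5%) reaching 6-fold. The 6 contigs that were not higher in lemongrass in the first case stood at 15.2 to 1147 CPM in the lemongrass library read, and the 3 in the second case at 130 to 1163 CPM.

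The choice through the second citronella library gave a different picture. Chosen in the first lemongrass and the second citronella library, 235 contigs had a median ratio of 5.18 in the other libraries. All 235 were higher in lemongrass there, 233 at least 2-fold and 92 (39.1%) at least 6-fold. Chosen in both second libraries, 248 contigs had a median of 4.94, again with all 248 higher in lemongrass and 90 (36.3%) reaching 6-fold. The direction held in every one of these contigs, while the size of the ratio was smaller when it was read through the first citronella library. The 80 contigs were in each of the 4 sets and among those reaching 6-fold in each, as their definition requires. They thus made up most of the contigs counted at 6-fold. Libraries of the same species may also share a plant, so these values are no independent test of the group.

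**Figure D3:**
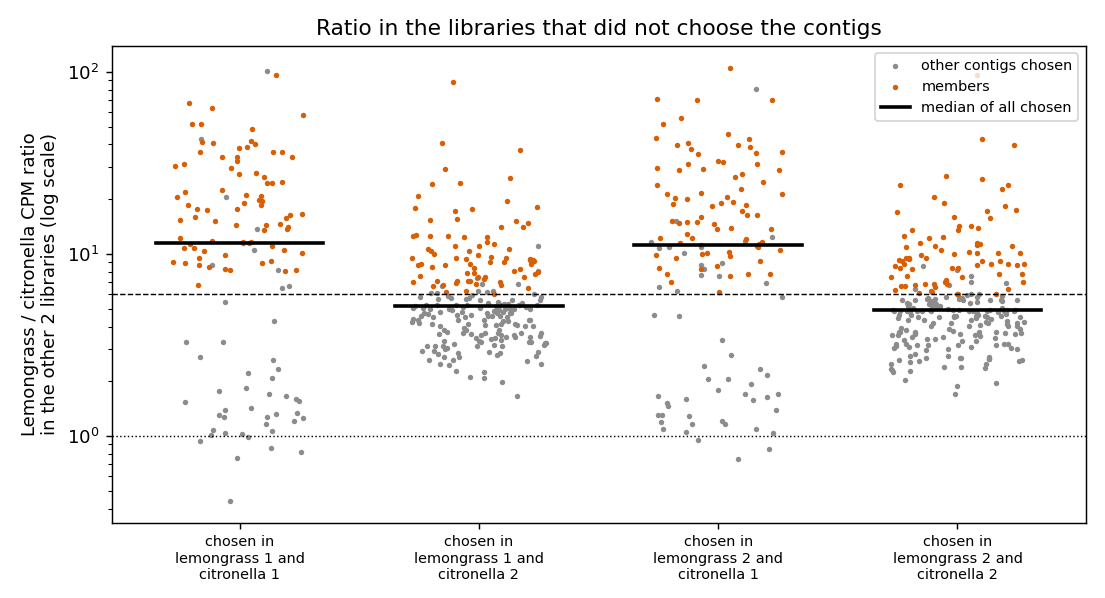
Lemongrass to citronella CPM ratio (log scale) in the 2 libraries that did not choose the contigs, for contigs chosen by 20 CPM and 6-fold in 1 lemongrass and 1 citronella library; each point is 1 contig, orange points are the 80 members, the bar is the median over all chosen contigs, and the lines mark equal levels (dotted) and 6-fold (dashed). Medians were 11.5 and 11.2 for contigs chosen with the first citronella library and 5.18 and 4.94 for those chosen with the second; the orange points lie above 6-fold by definition.

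In the fit across the whole table all 80 contigs passed the filter on low counts and were called higher in lemongrass by edgeR's quasi-likelihood test, where 23.0% of all 34705 contigs tested were called in that direction. The rule used this same contrast, so the count shows nothing further about the group. The fitted log2 fold changes, citronella minus lemongrass, ran from -7.00 to -3.18 with a median of -3.97, beside a median of 0.24 over all contigs tested. The fit held 434 contigs that were called and at least 6-fold higher in lemongrass. The 80 were among these, and 215 of the other 354 were below 20 CPM in a lemongrass library. The call of g.contigcw4781, the most abundant contig of the group, was lost when either lemongrass library was left out. Its log2 fold changes were then -3.56 and -3.58, beside -3.52 with all 4 libraries, so the size of the difference did not shrink.

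Within lemongrass the contigs of the group varied little between libraries. The ratio of the first to the second library ran from 0.776 to 1.21 with a median of 0.993, 36 contigs were higher in the first and 44 in the second, and 3 were over 1.2-fold apart. The widest gap was that of g.contigcw21361, at 34.8 and 44.9 CPM. It was followed by g.contigcw35282 (73.3 and 89.5 CPM), g.contigcw26724 (27.4 and 22.6 CPM) and g.contigcw17131 (186 and 159 CPM). All of these differences are small beside the gap to citronella.

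Within citronella the spread was larger and ran mostly one way. The ratio of the first to the second library had a median of 1.65, with 75 contigs higher in the first and 5 in the second, and 27 were over 2-fold apart. The largest ratio was that of g.contigcw22881, at 8.84 CPM (55 counts) in the first and 1.56 CPM (8 counts) in the second, against 55.4 and 62.8 CPM in lemongrass. g.contigcw27152 was next at 3.54 and 0.779 CPM, from 22 and 4 counts. The widest gap the other way was in g.contigcw25048, at 6.91 and 9.35 CPM, followed by g.contigcw4781.

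Other contigs leaned the same way in the citronella libraries. Among contigs with 2 to 9 counts in the second citronella library, the median ratio of the first to the second was 2.68 for 21 contigs of the group and 2.20 for 9183 others. With 10 to 24 counts it was 1.67 for 28 of the group and 1.34 for 11644 others. With 25 to 49 counts it was 1.39 for 15 and 1.26 for 6579, and with 50 to 119 counts 1.42 for 15 and 1.34 for 5609. In these 4 classes the first library was higher in 21 of 21, 26 of 28, 13 of 15 and 15 of 15 of the group. Among the others the shares were 94.7%, 73.8%, 71.4% and 81.2%. Among the others with 20 CPM or more in both lemongrass libraries, the medians in these 4 classes were 3.92 (6 contigs), 2.08 (73), 1.77 (276) and 1.51 (1453), each above that of the group. The rule shapes this order. With 20 CPM in lemongrass and 2 to 9 counts in the second citronella library, a contig stays outside the group only if the first is high. The classes were also formed on the second library, and low counts there raise the ratio by themselves. Within these limits, higher values in the first citronella library were seen in other contigs of like counts too. The differences between the group and the others were not tested.

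The contigs of the group shared no narrow range of level. Of the 3594 contigs with a mean of 20 to 50 CPM in lemongrass (and 20 CPM in both libraries), 29 or 0.807% belonged to the group. The shares were 24 of 2416 (0.993%) at 50 to 100 CPM, 19 of 1371 (1.39%) at 100 to 200 CPM and 8 of 906 (0.883%) above. Across the 80 contigs the mean levels in the 2 species rose together, with Spearman's rho of 0.78, as is partly set by the fixed minimum ratio. The lemongrass libraries ranked the contigs alike (rho 0.993) and the citronella libraries less closely (rho 0.882). These are correlations across contigs, which are not independent replicates.

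A feature the rule did not use directly is the running number in each contig's ID. What their order stands for is not stated in the labels. Over 10 equal runs of numbers, a division made after seeing the data, median levels were higher in the second run than in the first and lower in each run after it. From number 4226 on, levels fell along the numbers, more tightly in citronella than in lemongrass: Spearman's rho between number and CPM over 38025 contigs was -0.913 and -0.843 in the citronella libraries and -0.685 and -0.687 in the lemongrass libraries. Position by number is thus not independent of the rule, which limits the citronella level. Of the 80 contigs, 76 lay from number 4226 on. None were numbered next to each other, and the smallest gap between 2 of them was 6.

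Each contig of the group was ranked among the 100 contigs numbered around it, 50 on each side. In citronella the contigs sat near the middle of their surroundings, at median percentiles of 56.3 and 44.0 in the 2 libraries, with 44 and 32 of 80 above the local median. In lemongrass 76 of 80 were in the top 5 percent of their surroundings in each library, and the median percentile was 100. The contigs of the group thus had citronella levels near the middle of those around them and lemongrass levels far above. Both places are shaped by the rule, which set a minimum in lemongrass and, through the 6-fold condition, a limit in citronella.

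**Figure D4:**
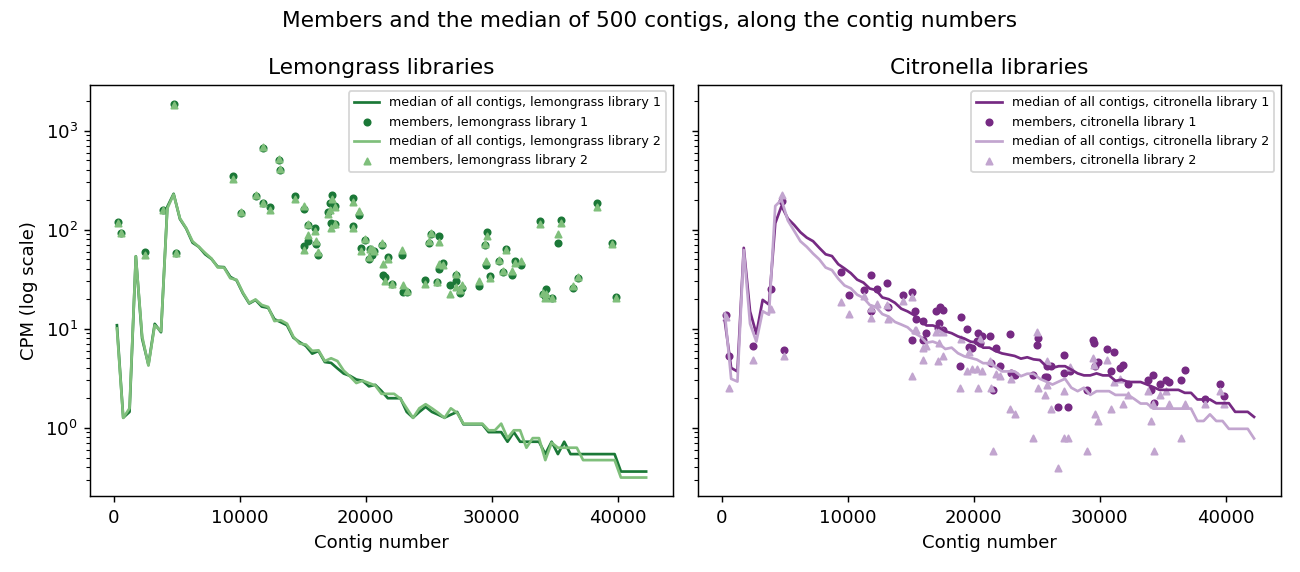
CPM (log scale) of the 80 members (points) along the contig number, with the median of all contigs in steps of 500 numbers (lines), for the lemongrass libraries (left) and the citronella libraries (right). In citronella the members follow the falling median, at median percentiles of 56.3 and 44.0 among their neighbours, while in lemongrass 76 of 80 lie in the top 5 percent.

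Single contigs show both the pattern and its exceptions. g.contigcw38346, the contig with the largest ratio, was at the 41.0 and 61.0 percentile of its surroundings in the citronella libraries and above all of them in lemongrass. g.contigcw18952 was low for its number in citronella, at the 8 and 11 percentile, and g.contigcw26724 lower still, at the 1.5 and 4.0 percentile. g.contigcw4966, named after its values were seen, went against the pattern in lemongrass. It stood at 57.8 and 58.4 CPM there, the 16 and 14 percentile of its surroundings, and at 6.11 and 5.26 CPM in citronella, the 1 and 0 percentile of its surroundings.

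The group was spread over the numbers unlike the other contigs that lemongrass leaves expressed. Up to number 16900, 22 of the 7934 contigs with 20 CPM or more in both lemongrass libraries belonged to it (0.277%). From 16901 on it was 58 of 353 (16.4%), and from 29576 on it was 20 of 25. This rise is shaped by the rule, since the numbers follow citronella level, which the 6-fold condition limits. From number 38026 on the median citronella levels were 1.61 and 1.17 CPM. There a contig of ordinary citronella level with 20 CPM in lemongrass meets the 6-fold condition at once. From number 16901 on, the 295 contigs with that lemongrass level outside the group had median citronella percentiles of 85.0 and 77.0, against 62.0 and 42.5 for the 58 inside it. This difference too is shaped by the 6-fold condition and is given as a description.

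The contigs numbered directly before or after one of the 80 were mostly low in lemongrass. Of these 160 contigs, 145 passed the filter on low counts. By the same edgeR fit, adjusted over all contigs tested, 23 of them (15.9%) were called higher in lemongrass, where 23.0% of all contigs were. Another 60 (41.4%) were called higher in citronella, where 34.1% of all contigs were. Call shares at like numbers were not computed, so these differences cannot be told apart from position along the numbers. The contigs next to a member had median levels of 2.35 and 2.12 CPM in lemongrass and 5.46 and 4.29 CPM in citronella. Such levels are ordinary at these numbers. Over all contigs of the fifth of the 10 runs, medians were 3.25 and 3.30 CPM in lemongrass and 8.20 and 5.65 CPM in citronella. In the sixth run they were 1.62 and 1.73 CPM and 5.30 and 3.70 CPM. An example is g.contigcw15108, numbered next to a member, with 0 counts in both lemongrass libraries and 79 and 57 in the citronella libraries.

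The same 2 thresholds were applied in the other direction and on the contigs with the lemongrass prefix, to set the number 80 in context. On citronella contigs 658 met them with higher levels in citronella (7.69% of the 8560 with 20 CPM in both citronella libraries), and 25 of these had 0 counts in both lemongrass libraries. On lemongrass contigs 358 met them with higher levels in lemongrass (4.38% of 8178) and 57 with higher levels in citronella (0.735% of 7753). The 57 are the counterpart of the 80, since both are contigs of one species that were higher in the other. No contig of either set had 0 counts in both libraries of the species of its prefix, the median ratios were 7.40 and 9.13, and 0 of the 57 and 8 of the 80 reached 20-fold. Both contig sets were counted in the same libraries, and IDs were not matched between them.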

How the data were processed

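Leaf RNA-seq was counted in 2 lemongrass and 2 citronella libraries, grouped by the sample titles. The authors deposited whole-number counts per contig, 1 column per library per the file headers, in 2 tables with different contig sets. Tools listed, without their roles, in the submitters' processing notes are HTSeq, HISAT2, edgeR, SAMtools, Trimmomatic 0.32 and FastQC 0.11.2. How the contigs were made, and the reference, are not given in the sources used. The total differs between columns, so the values were taken as raw counts, and each was divided by its column total to give CPM.

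The members and all choices below were made with earlier results of these data known. The 80 contigs follow the rule stated at the start. The species were compared over all citronella contigs with edgeR 4.0.16 in R 4.3.3 (filterByExpr by species, TMM, glmQLFit, glmQLFTest), with two-sided p-values adjusted by Benjamini-Hochberg and called below 0.05. The fit was tested on simulated data. Fold intervals are exact (Clopper-Pearson, 95%) on summed counts, and like the 3-count limit they cover counting error only. Summed lemongrass counts were divided by summed citronella counts after scaling by the totals.

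Contigs were named by rule: the 6 largest ratios, the 6 highest lemongrass levels, those next to each threshold, those furthest apart between libraries, and neighbours by number. The 60 neighbours called higher in citronella are given by count with 1 example, picked after seeing its values. Alternatives were other scalings, no filter, DESeq2 1.42.0, limma-voom (limma 3.58.1), a replicate block and leaving out each library.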

Additional observations from a re-analysis of the deposited data

How the results depend on the processing

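The number of contigs that met the rule depended on scaling and on the citronella value used. It was 80 with column totals, 187 with TMM-scaled library sizes, 192 with DESeq2's size factors, 147 with upper-quartile scaling and 121 with the mean of the citronella columns. With 1 library left out it ran from 89 (without the second lemongrass library) to 211 (without the first citronella library). Each of these sets held all 80, in the left-out and mean settings by construction. With members chosen on TMM-scaled CPM, the group took 1.86% of the lemongrass counts and 0.228% of the citronella counts, in place of 0.974% and 0.0779%. On the whole table, 7975 contigs were called higher in lemongrass by edgeR and 3620 with library totals alone as scaling, which moved the median log2 fold change of all contigs from 0.24 to 0.66. The median of the 80 was then -3.53 in place of -3.97, and it stayed between -4.35 and -3.53 under all alternatives run. All 80 kept their direction and their call under these alternatives, DESeq2 and limma-voom included, except g.contigcw4781 without either lemongrass library.

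The libraries of the species share replicate numbers, but no label says that a number marks a shared plant or day. With replicate number as a block, 7741 contigs were called higher in lemongrass, all 80 among them. The replicate differences of the 2 species correlated with r = -0.061 across 32055 contigs. With 2 libraries per species, this value cannot show whether a replicate number marks a shared plant or day. Read with TMM-scaled CPM, a setting chosen after seeing the data, the median ratios in the libraries not used for the choice were 8.48 and 8.54 with the first citronella library and 7.01 and 6.85 with the second. Low counts limit the precision of the citronella levels, since a member had as few as 2 counts in the second citronella library. The spread between the citronella libraries went beyond counting error, with a chi-square of 3.82 per member after scaling to the members' own counts. Between the lemongrass libraries it was 1.56 per member. Not limited to members, and without scaling to their counts, it was 17.7 per contig in citronella and 1.92 in lemongrass. These values also take in the abundant contigs compressed in the first citronella library, so they are not like the values per member. Whether the excess was particular to the group was not tested.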

Other observations

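The running numbers of the lemongrass contigs followed levels too, and there more tightly in lemongrass. Spearman's rho between number and CPM over all 25576 lemongrass contigs was -0.844 and -0.821 in the lemongrass libraries and -0.652 and -0.620 in the citronella libraries. In both contig sets the numbers thus followed the levels of the species named by the prefix more closely. On citronella contigs the first 4225 numbers showed no fall. There rho was positive and weak, at 0.126 and 0.135 in the lemongrass libraries and 0.214 and 0.163 in the citronella libraries. The correlations are across contigs within a library and carry no p-value.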
